A study of Mus musculus with 12 samples.

Results

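The genes described here are 10 core genes of the NF-kB system: the 5 genes of the subunits (Rela, Relb, Rel, Nfkb1 and Nfkb2), 4 genes of IkB proteins (Nfkbia, Nfkbib, Nfkbie and Nfkbiz) and Tnfaip3, which encodes the inhibitor A20. They were chosen by name, among 43453 genes in the deposited table of read counts, and all 10 were found and passed the filter on low counts in every comparison. The counts are from bone marrow-derived macrophages (BMDMs) of C57BL/6 mice, grown for 7 days in medium with M-CSF at 50 ng/mL. The tlr4f/f mice carry a floxed tlr4, the gene of the LPS receptor, without Cre, and tlr4f/f-lysM-cre mice add a Cre driven by the lysozyme M promoter, which is active in myeloid cells. BMDMs of both genotypes were left untreated (LPS-) or were given 1 µg/mL of LPS, the bacterial ligand of TLR4, for 6 h (LPS+). Each of the 4 groups has 3 libraries. The labels number these but do not say whether they came from separate mice or cultures, so that p-values measure only the spread between these libraries.

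NF-kB transcription factors are dimers of subunits. In resting macrophages most dimers are held in the cytoplasm by IkB proteins. TLR4 signalling activates a kinase complex that marks IkB for degradation, the dimers enter the nucleus, and among the genes they switch on are those of their own inhibitors, foremost Nfkbia and Tnfaip3, which close a negative feedback loop.

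The libraries held between 33577440 and 56445989 counts over all genes. Groups are named by the headings of their columns ("under LPS- tlr4f/f" means the columns with that heading), and the genes that check these headings went against them. Tlr4 was counted 4486 to 9136 times under LPS- tlr4f/f, 3041 to 4367 times under LPS- tlr4f/f-lysM-cre, 1086 to 1484 times under LPS+ tlr4f/f and 891 to 1191 times under LPS+ tlr4f/f-lysM-cre, so that the low counts followed LPS in the heading and not Cre. Lyz2, whose locus carries the Cre, was counted 221787 times or more in each library under LPS- and 3272 times or fewer in each under LPS+. Il1b, an LPS-induced cytokine gene, was counted 52432 times or more in each library under tlr4f/f-lysM-cre and 405 times or fewer in each under tlr4f/f. If the heading LPS+ tlr4f/f were exchanged with the heading LPS- tlr4f/f-lysM-cre, low Tlr4 and Lyz2 would go with Cre and high Il1b with LPS. Both readings are therefore given. The exchange renames each comparison of a pair of groups but does not alter its values, because the same libraries are subtracted.

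The macrophage markers (10 genes) were all expressed in every group, with a summed level of 8754 to 15767 CPM (counts scaled to library totals and edgeR's TMM factors). Markers of fibroblasts and stroma (6 of 6 above 3 counts in every group) summed to 185 to 1471 CPM in the libraries under LPS- tlr4f/f-lysM-cre, to 9.42 to 665 CPM in those under LPS- tlr4f/f, and to 20.6 to 56.5 CPM in the 6 libraries under LPS+. Neutrophil markers (7 of 8 above 3 counts in every group) reached 192 CPM in replicate 3 under LPS- tlr4f/f-lysM-cre and 27.9 CPM or less elsewhere, with Ly6g at 0 in the other 3 groups. The highest levels of the NF-kB genes were in the group with the highest stromal sums. In replicates 1, 2 and 3 of that group, the stromal sums were 967, 185 and 1471 CPM. The 10 NF-kB genes summed there to 8208, 7563 and 6245 CPM. In replicate 1 under LPS- tlr4f/f, the stromal sum was 665 CPM and the 10 genes summed to 545 CPM. Under LPS+, the stromal sum was 44.6 to 56.5 CPM for tlr4f/f-lysM-cre and 20.6 to 25.2 CPM for tlr4f/f, with Pdgfrb at 16.7 and 0.602 CPM. Dendritic cell markers (2 of 4 above 3 counts in each group) summed to 2.55 to 6.13 CPM in the 6 libraries under tlr4f/f-lysM-cre and to 0.191 to 0.652 CPM in the 6 under tlr4f/f, most of it from Xcr1 in the former, with Flt3 and Siglech at 2 counts or fewer in every library. The part of other cells in the results was not tested. In bulk RNA, fewer cells of a type and less RNA per cell cannot be told apart.

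Promoter sequence was read for the genes that moved together, from RefSeq windows of 300 bases (GRCm38.p6, the coordinates of mm10) that reach from 250 bases before to 50 after a transcript start. Windows were at hand for 7 of the 10 genes: Rela, Rel, Nfkb2, Nfkbia, Nfkbib, Nfkbie and Tnfaip3. A match to the kappaB consensus, the 10-base pattern that NF-kB dimers bind, was searched on both strands. It was found in 5 of the 7, namely Rel, Nfkb2, Nfkbia, Nfkbie and Tnfaip3, and not in Rela or Nfkbib. Of all 26994 genes with a window, 9.55% held a match. Below are 150 bases of 3 of these genes, which end 2 bases before the transcript start, each on the strand of the gene, with the match in capitals, at chr12:55492649-55492798 (minus strand), chr11:23770971-23771120 (minus strand) and chr17:45555549-45555698 (plus strand).
Nfkbia: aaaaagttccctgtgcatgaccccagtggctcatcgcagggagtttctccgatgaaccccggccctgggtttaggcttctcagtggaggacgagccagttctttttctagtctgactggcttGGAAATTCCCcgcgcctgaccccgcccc
Rel: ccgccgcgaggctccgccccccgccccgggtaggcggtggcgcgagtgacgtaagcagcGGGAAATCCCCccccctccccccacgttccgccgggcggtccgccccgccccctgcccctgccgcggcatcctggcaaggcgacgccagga
Nfkbie: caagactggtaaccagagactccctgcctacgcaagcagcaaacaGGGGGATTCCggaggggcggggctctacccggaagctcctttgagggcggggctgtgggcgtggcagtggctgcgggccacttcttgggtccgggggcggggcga

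The match began 29 bases before the start of Nfkbia, 92 before that of Rel and 106 before that of Nfkbie. The capitals of Rel span 11 bases because a pair of matches overlap by 9. The first window in the table of Nfkb2 and of Tnfaip3 had matches at 2 places, shown here in stretches of 30 bases (windows of further transcript starts, which held matches at 2 more places for Nfkb2 and none for Tnfaip3, are not shown), at chr19:46304679-46304708 and chr19:46304707-46304736 (plus strand) for Nfkb2 and at chr10:19015525-19015554 and chr10:19015412-19015441 (minus strand) for Tnfaip3.
Nfkb2, 39 bases before the start: tgacgcacgggatcgtcacGGGAATTCCCC
Nfkb2, 11 bases before the start: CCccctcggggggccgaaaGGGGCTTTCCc
Tnfaip3, 125 bases before the start: tgcccaggtgactcacgcgGGGACACCCCg
Tnfaip3, 12 bases before the start: cgtgactggaatttccatcGGAAATCCCCc

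The first Nfkb2 run is again a pair of overlapping matches, and its last bases open the second stretch. A match describes the letters of a window and is neither a bound site nor a cause of the levels below, and the absence of a match says only that these letters are not in this window.

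Among the subunits with their own activation domain, Rela (p65, chr19:5637483-5648130 of mm10), the subunit of the classical dimer, varied least between groups. The counts were 6931, 6968 and 6526 in the libraries under LPS- tlr4f/f, which is 119, 111 and 122 CPM. It stood at 328, 327 and 265 CPM in the libraries under LPS- tlr4f/f-lysM-cre, at 94.0, 90.2 and 79.3 CPM in those under LPS+ tlr4f/f and at 160, 171 and 155 CPM in those under LPS+ tlr4f/f-lysM-cre. No groups overlapped for Rela, and both groups under tlr4f/f-lysM-cre lay above both under tlr4f/f. Relb, the partner of p52 in the alternative pathway (chr7:19606217-19629438), stood at 21.4 ± 7.07 CPM under LPS- tlr4f/f and 18.8 ± 0.646 under LPS+ tlr4f/f (SD, n = 3), where the groups overlapped. It reached 150 ± 2.88 CPM under LPS- tlr4f/f-lysM-cre and 81.9 ± 5.63 under LPS+ tlr4f/f-lysM-cre. Rel (c-Rel, chr11:23736847-23770970), the subunit best known for lymphocytes and for interleukin genes of macrophages, was at 13.5 ± 5.14 and 15.5 ± 1.35 CPM in the same pair of groups under tlr4f/f, again with overlap, and at 94.9 ± 2.80 and 77.4 ± 4.85 CPM in those under tlr4f/f-lysM-cre, without.

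Nfkb1 (p105, the precursor of p50, chr3:135584655-135691547) was at 94.4, 88.3 and 125 CPM in the libraries under LPS- tlr4f/f and at 86.1, 91.2 and 84.1 CPM in those under LPS+ tlr4f/f. It was at 1124, 845 and 589 CPM under LPS- tlr4f/f-lysM-cre and at 618, 653 and 614 CPM under LPS+ tlr4f/f-lysM-cre. The spread of the first of these was wide, and Nfkb1 was the only 1 of the 10 genes for which the groups under tlr4f/f-lysM-cre overlapped; 48.0% of all genes tested in this comparison showed no overlap. Nfkb2 (p100, the precursor of p52 and itself an inhibitor of Relb dimers, chr19:46304320-46312385) was at 74.4, 45.6 and 41.5 CPM under LPS- tlr4f/f and at 48.4, 48.0 and 44.7 CPM under LPS+ tlr4f/f. It was at 1169, 1118 and 787 CPM under LPS- tlr4f/f-lysM-cre and at 439, 487 and 417 CPM under LPS+ tlr4f/f-lysM-cre. Per kilobase, Nfkb2 lay above Nfkb1 in all 3 libraries under LPS- tlr4f/f-lysM-cre and below it in the other 9.

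**Figure D1:**
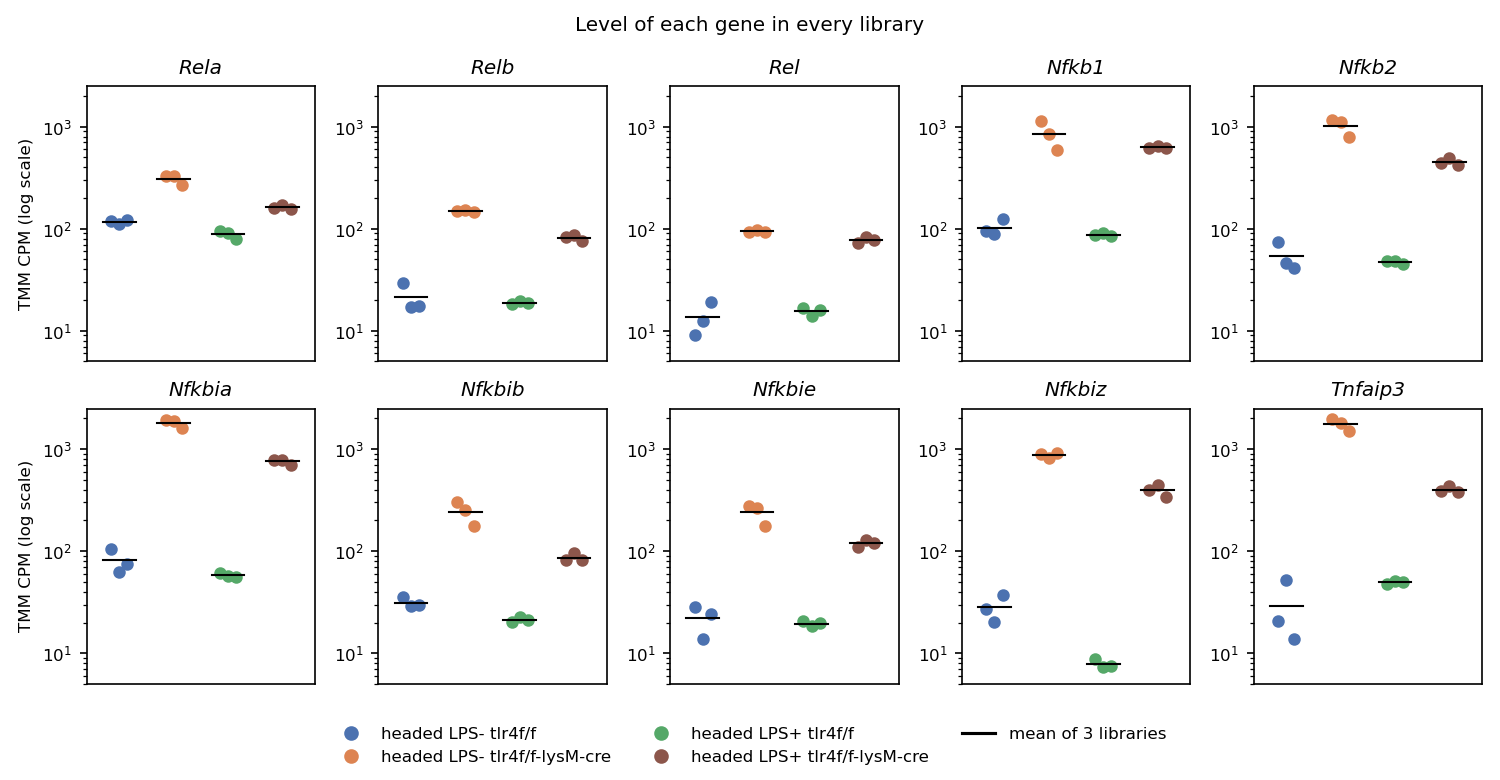
Level of each of the 10 genes in each of the 12 libraries, in TMM-scaled CPM on a log axis. Points are libraries, coloured by the heading of their columns, and bars are means of 3. For every gene both groups under tlr4f/f-lysM-cre lie above both under tlr4f/f. Of all genes tested, 25.0% lay higher without overlap under tlr4f/f-lysM-cre in the LPS- columns and 32.6% in the LPS+ columns. Nfkbiz is lowest under LPS+ tlr4f/f, at 7.40 to 8.79 CPM.

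Nfkbia (IkB-alpha, chr12:55489410-55492647), the inhibitor that NF-kB resynthesizes after each activation, had the highest level per length in every group. It was counted 6177, 3962 and 4033 times under LPS- tlr4f/f and 2882, 2229 and 3240 times under LPS+ tlr4f/f, which is 106, 63.1 and 75.6 CPM and 60.6, 57.4 and 56.2 CPM. It rose to 1914, 1875 and 1607 CPM under LPS- tlr4f/f-lysM-cre and to 783, 788 and 706 CPM under LPS+ tlr4f/f-lysM-cre. None of the 4 groups overlapped. Nfkbib (IkB-beta, chr7:28758251-28767512), the more slowly degraded form, was at 31.3 ± 3.87 CPM under LPS- tlr4f/f, 21.4 ± 1.17 under LPS+ tlr4f/f, 243 ± 63.4 under LPS- tlr4f/f-lysM-cre and 86.6 ± 7.49 under LPS+ tlr4f/f-lysM-cre, without overlap. Nfkbie (IkB-epsilon, chr17:45555703-45563169), a second inhibitor under feedback, was at 22.3 ± 7.66, 19.6 ± 1.12, 240 ± 55.8 and 119 ± 8.99 CPM in the same order, and only the first pair overlapped.

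Nfkbiz (IkB-zeta, chr16:55811375-55838899) differs in role from the other IkB proteins: it is nuclear, is made after stimulation and assists transcription of secondary genes such as Il6. It was counted 1577, 1265 and 1987 times under LPS- tlr4f/f but 418, 287 and 431 times under LPS+ tlr4f/f, or 27.0, 20.2 and 37.2 CPM against 8.79, 7.40 and 7.47 CPM. It stood at 901, 814 and 915 CPM under LPS- tlr4f/f-lysM-cre and at 402, 446 and 336 CPM under LPS+ tlr4f/f-lysM-cre. None of its groups overlapped.

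Tnfaip3 (A20, chr10:19000910-19015657), a ubiquitin-editing enzyme that ends signalling upstream of the IkB kinases, was counted 1214, 3308 and 734 times under LPS- tlr4f/f, or 20.8, 52.7 and 13.8 CPM. Its coefficient of variation of 71.3% in this group was the highest of the 10 genes in any group, and only replicate 2 reached the levels under LPS+ tlr4f/f, which were 47.3, 50.8 and 50.2 CPM. It stood at 1955, 1812 and 1490.4 CPM under LPS- tlr4f/f-lysM-cre and at 389, 433 and 379 CPM under LPS+ tlr4f/f-lysM-cre. The drop between these groups was the widest of the 10 genes.

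Of the libraries under LPS-, those under tlr4f/f-lysM-cre were compared with those under tlr4f/f. With the headings exchanged this is LPS against no LPS in tlr4f/f BMDMs. All 10 genes were called higher (fold change above 2 and adjusted p below 0.01, the criteria of the study), beside 9.26% of the 14649 genes tested that were called higher. Their median log2 fold change was 3.23, against -0.08 over all genes tested. Among the IkB genes and Tnfaip3, the widest rise was that of Tnfaip3, 59.7-fold (log2 fold change 5.90, SE 0.612, adjusted p = 0.00123). Nfkbiz rose 31.1-fold (4.96, SE 0.294, adjusted p = 0.000410) and Nfkbia 21.9-fold (4.45, SE 0.285, adjusted p = 0.000461). Without replicate 2 under LPS- tlr4f/f, the log2 fold change of Tnfaip3 was 6.66. Nfkbie rose 10.7-fold and Nfkbib 7.71-fold. Among the subunits, Nfkb2 rose most, 18.9-fold (4.24, SE 0.331, adjusted p = 0.000642), ahead of Nfkb1 with 8.26-fold, Rel with 6.98-fold and Relb with 6.94-fold. Rela rose 2.60-fold (1.38, SE 0.151, adjusted p = 0.00136). Scaled by library totals without TMM factors, a setting added once the data had been seen, the median of all genes moved by -0.64 and that of the 10 genes was 2.57. Rela then stood at 0.73, under the fold criterion, and the other 9 genes were still called higher. The number of all genes called under that scaling is not given here, so these 9 are not set against all genes.

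Of the libraries under LPS+, those under tlr4f/f-lysM-cre were compared with those under tlr4f/f. With the headings exchanged this is LPS against no LPS in tlr4f/f-lysM-cre BMDMs. Here 9 of the 10 genes were called higher, beside 10.8% of 14551 genes tested, and the median log2 fold change was 2.74 against -0.02 over all genes. Nfkbiz led with 50.4-fold (log2 fold change 5.65, SE 0.131, adjusted p = 2.11e-09), a rise that only 0.838% of the genes tested exceeded. Nfkbia rose 13.2-fold (3.72, SE 0.0651, adjusted p = 8.18e-13), Nfkb2 9.59-fold, Tnfaip3 8.16-fold (3.03, SE 0.0657, adjusted p = 3.13e-12) and Nfkb1 7.26-fold. Nfkbie rose 6.13-fold, Rel 5.02-fold, Relb 4.40-fold and Nfkbib 4.08-fold. Rela, 1.86-fold higher (0.89, SE 0.0675, adjusted p = 1.72e-07), passed the p threshold but not the fold criterion. Standard errors were smaller than in the groups under LPS-, whose libraries also spread more over all genes, with a biological coefficient of variation of 48.4% and 42.8% against 8.78% and 9.02% under LPS+.

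**Figure D2:**
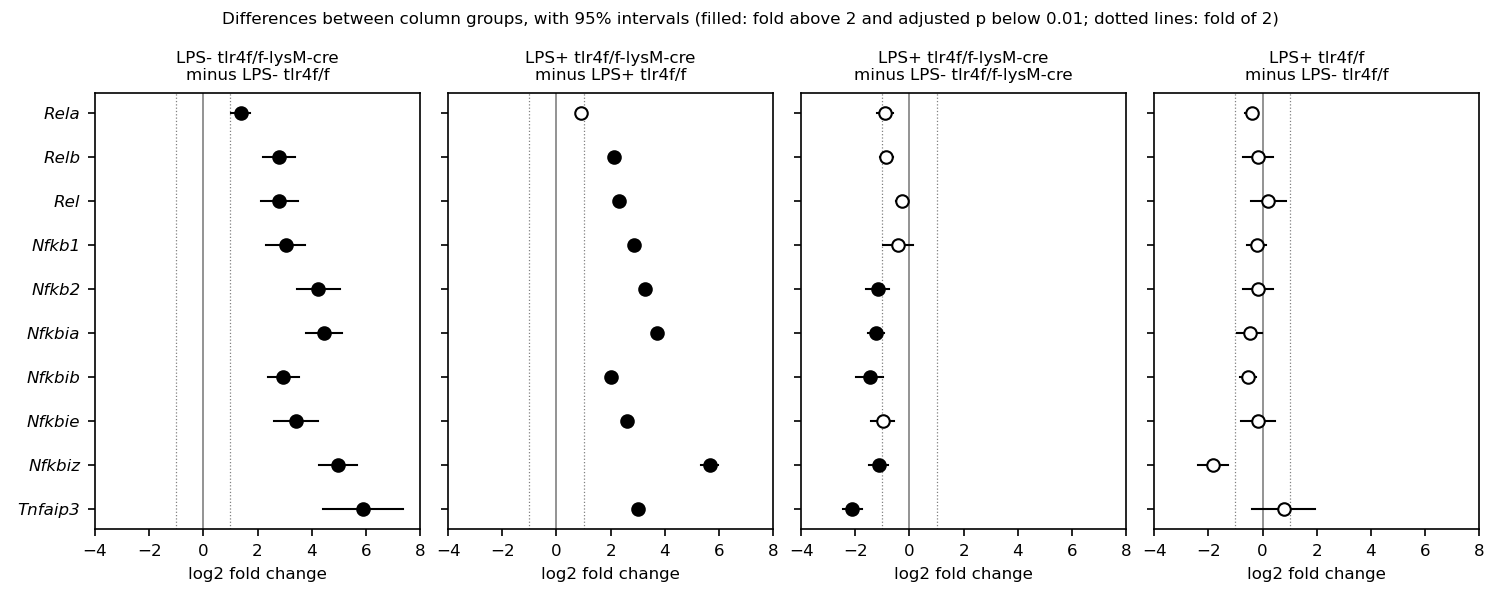
Log2 fold change of each gene (points) with its 95% interval (lines) in the 4 comparisons of pairs of groups, named by column headings above each panel. Filled points passed a fold change of 2 and an adjusted p of 0.01. The first 2 panels, tlr4f/f-lysM-cre minus tlr4f/f, hold 10 and 9 filled points to the right of 0, the third holds 5 to the left, and the last holds none.

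Within tlr4f/f-lysM-cre as headed, LPS+ was compared with LPS-, which with the headings exchanged sets the genotypes against each other in the presence of LPS (tlr4f/f-lysM-cre minus tlr4f/f). Among the IkB genes and Tnfaip3, 4 of 5 were called lower in the LPS+ columns. Tnfaip3 was 4.34-fold lower (log2 fold change -2.12, SE 0.146, adjusted p = 0.000962) and Nfkbib 2.78-fold (-1.48, adjusted p = 0.00464). Nfkbia was 2.35-fold lower (-1.23, adjusted p = 0.00209) and Nfkbiz 2.20-fold (-1.14, adjusted p = 0.00381). Of the subunits, Nfkb2 was called, 2.26-fold lower (-1.18, adjusted p = 0.00572). These are 5 of 10 genes called lower, beside 3.66% of 14245 genes tested (867 genes called in either direction). With the replicate number as a block, 1 of the 10 was called. Rela (-0.91, adjusted p = 0.00395) and Relb (-0.86, adjusted p = 0.00275) passed the p threshold without the fold, and Nfkbie (-0.99, adjusted p = 0.0113) missed both narrowly. Rel (-0.28, adjusted p = 0.0700) and Nfkb1 (-0.43, adjusted p = 0.208) did not pass, and Rel stood at 0.06 when scaled by library totals without TMM factors. That scaling moved the median of all genes by 0.35 and left Tnfaip3 and Nfkbib as the 2 members called. The number of all genes called under it is not given here, so the fall from 5 to 2 is not set against all genes. Leaving out any 1 library under LPS+ tlr4f/f-lysM-cre left 0 members called (4 to 15 genes in all), while between 4 and 7 were called without 1 of those under LPS- tlr4f/f-lysM-cre (935 to 1180 genes in all), and Tnfaip3 kept a log2 fold change of -2.05 or lower under each library left out.

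Within tlr4f/f as headed, LPS+ was compared with LPS-, which with the headings exchanged sets the genotypes against each other in the absence of LPS (tlr4f/f-lysM-cre minus tlr4f/f). None of the 10 genes was called with edgeR, as were 0 of the 14712 genes tested (0%). An unadjusted p below 0.05 was found for 4 of the 10 and for 24.6% of all genes tested. Nfkbiz had the widest difference, 3.52-fold lower in the LPS+ columns (log2 fold change -1.82, SE 0.231, adjusted p = 0.0431), and was the 1 member that DESeq2 called (467 of 14712 genes in all). Its adjusted p over the alternatives ran from 8.66e-10 to 0.263. It was also called when replicate 3 under LPS- tlr4f/f was left out (182 of 15240 genes in all). Nfkbib (-0.54, adjusted p = 0.0707), Rela (-0.40, adjusted p = 0.0801) and Nfkbia (-0.47, adjusted p = 0.195) lay lower without overlap. Non-overlap of either direction was seen for 4 of the 10 genes and for 35.3% of all genes tested. Tnfaip3 stood at 0.77 with a 95% interval from -0.39 to 1.94, and at 1.53 without replicate 2 under LPS- tlr4f/f (adjusted p = 0.0260). The other 5 genes, all with overlapping groups, lay between -0.22 and 0.21.

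The interaction of genotype and LPS asks whether the change with LPS differs between genotypes. It is the same sum in both readings: the LPS change in tlr4f/f-lysM-cre minus that in tlr4f/f. It was fitted on all 12 libraries. None of the 10 genes was called with edgeR, beside 0.405% of 15792 genes called lower and 0.589% called higher. An unadjusted p below 0.05 was found for 8 of the 10 and for 23.4% of all genes tested. DESeq2 called 2 of them and 657 of all genes, and limma voom 1 and 164. The widest was Tnfaip3 (log2 -2.89, SE 0.540, adjusted p = 0.0129), 7.44-fold, which missed the p criterion and passed it when replicate 2 or replicate 3 under LPS- tlr4f/f was left out. The difference of Tnfaip3 between the groups under tlr4f/f, which enters this sum, moved from 0.77 to 1.53 without replicate 2 and to 0.44 without replicate 3. Its adjusted p was between 2.31e-06 and 0.0473 over the alternatives. Nfkbib (-0.94, SE 0.245, adjusted p = 0.0446) was called without replicate 3 under LPS- tlr4f/f-lysM-cre (-1.12, adjusted p = 0.00559). The next widest was Nfkb2 (-0.998, adjusted p = 0.0781). The interaction was negative for 9 genes and positive for Nfkbiz (0.68, SE 0.281, adjusted p = 0.169). Nfkb1 was close to 0 (-0.20, 95% interval -0.85 to 0.45) and turned to 0.18 when scaled by library totals without TMM factors. In the reading with exchanged headings, LPS thus went with 59.7-fold more Tnfaip3 in tlr4f/f (all 3 control libraries kept) and 8.16-fold more in tlr4f/f-lysM-cre. For Nfkbiz, these values were 31.1-fold and 50.4-fold. With edgeR on all 12 libraries, the difference between genotypes passed both criteria for neither gene.

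Levels per kilobase of transcript allow the genes to be set beside each other. In the libraries under LPS- tlr4f/f the order was Nfkbia (51.6 CPM per kilobase), Rela (43.3), Nfkb1 (24.9), Nfkbib (22.9) and Nfkb2 (15.8), with Rel lowest at 5.24. Under LPS+ tlr4f/f, the first 5 were in the same order, and Nfkbiz was lowest at 2.05. Under LPS- tlr4f/f-lysM-cre, Nfkbia stood at 1139 CPM per kilobase, followed by Tnfaip3 (396), Nfkb2 (300.1) and Nfkbiz (227), and Rela was seventh at 113. Under LPS+ tlr4f/f-lysM-cre, Nfkbia (481) was followed by Nfkb1 (153) and Nfkb2 (131), and Rela was again seventh at 59.8.

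The make-up of the subunit pool differed accordingly. Rela held 43.9 ± 2.40% of the summed level per kilobase of the 5 subunit genes under LPS- tlr4f/f and 39.6 ± 1.62% under LPS+ tlr4f/f (SD, n = 3), but 15.8 ± 1.32% and 14.6 ± 0.101% in the LPS- and LPS+ columns under tlr4f/f-lysM-cre. Nfkb2 held 15.9 ± 4.47% and 16.8 ± 0.0803% in the former pair and 41.3 ± 1.54% and 31.9 ± 0.837% in the latter. Nfkb1 held 28.1 ± 3.92% under LPS- tlr4f/f-lysM-cre and 37.2 ± 0.764% under LPS+ tlr4f/f-lysM-cre, so that the precursor genes exchanged their order between these groups. Group means of the share ran from 9.05% to 10.4% for Relb and from 5.19% to 7.33% for Rel.

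**Figure D3:**
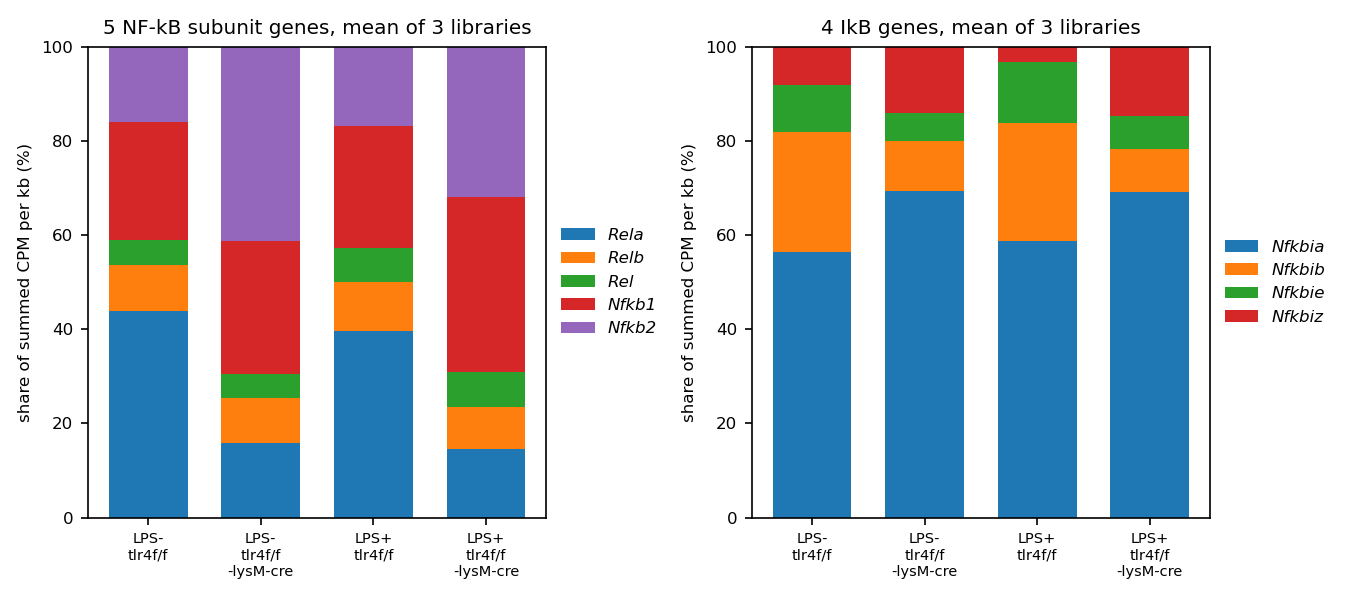
Share of each gene in the summed level per kilobase (CPM per kb, %) of the 5 subunit genes (left) and the 4 IkB genes (right), as means of 3 libraries in each group by column heading. Rela fills 43.9% and 39.6% of the subunit bars under tlr4f/f and 15.8% and 14.6% of those under tlr4f/f-lysM-cre, where Nfkb1 and Nfkb2 fill most of the rest.

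Among the IkB genes, Nfkbia held 56.4 ± 3.14% and 58.9 ± 0.960% of the sum per kilobase in the LPS- and LPS+ columns under tlr4f/f, and 69.4 ± 1.08% and 69.2 ± 1.33% in those under tlr4f/f-lysM-cre. Nfkbiz held 8.12 ± 2.41% under LPS- tlr4f/f and 3.27 ± 0.257% under LPS+ tlr4f/f, against 14.0 ± 2.06% and 14.7 ± 1.09% under tlr4f/f-lysM-cre. Nfkbib went the other way, from 25.6% and 25.0% to 10.7% and 9.11%. The 4 IkB genes together stood at 0.913 ± 0.131 of the 5 subunit genes under LPS- tlr4f/f and 0.764 ± 0.0229 under LPS+ tlr4f/f, and at 2.29 ± 0.215 and 1.69 ± 0.0552 under LPS- and LPS+ tlr4f/f-lysM-cre. None of these 4 groups overlapped. The ratio of Nfkbia to Rela, the inhibitor and its main client, was 1.19 ± 0.298 and 1.14 ± 0.0675 under tlr4f/f and 10.1 ± 0.279 and 8.04 ± 0.316 under tlr4f/f-lysM-cre. These are ratios of RNA and do not measure protein. With 3 libraries against 3, a two-sided exact permutation test of such a ratio cannot go below 0.1, and none was run.

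**Figure D4:**
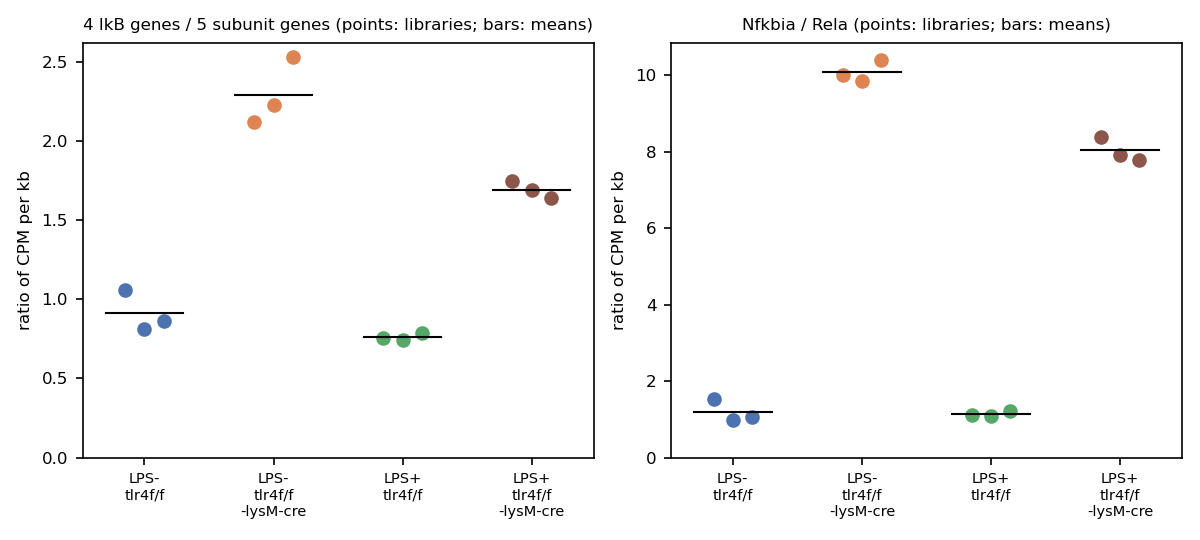
Ratio of the summed levels per kilobase of the 4 IkB genes and the 5 subunit genes (left) and of Nfkbia and Rela (right). Points are libraries, bars are means of 3, groups are by column heading. The left ratio is 0.745 to 1.06 in the libraries under tlr4f/f and 1.64 to 2.53 in those under tlr4f/f-lysM-cre.

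The wider pathway was described with 28 other genes of kinases, adaptors, atypical IkB proteins and ubiquitin enzymes. With the LPS- columns, 11 were called higher under tlr4f/f-lysM-cre and 2 lower, with a median log2 fold change of 0.65, while 9.26% of all genes tested were called higher and 7.81% lower. With the LPS+ columns, 10 were called higher and none lower, with a median of 0.44, beside 10.8% and 10.9% of all genes. Bcl3, an atypical IkB protein that binds p50 and p52 in the nucleus, rose most in both (3.53, adjusted p = 0.000968, and 2.89, adjusted p = 1.37e-11). Its level was 18.4 ± 6.64 CPM under LPS- tlr4f/f, 216 ± 44.5 under LPS- tlr4f/f-lysM-cre, 11.04 ± 0.604 under LPS+ tlr4f/f and 80.9 ± 7.26 under LPS+ tlr4f/f-lysM-cre. Tab1, which activates the kinase TAK1, was the gene called with the largest fall under LPS- (-1.67, adjusted p = 0.00599). Between the groups under tlr4f/f-lysM-cre, Bcl3 was lower in the LPS+ columns (-1.40, adjusted p = 0.00275) and was 1 of 2 genes of this list called, beside 3.66% of all genes called lower. The genes called in all in this comparison numbered 867, and 4 to 1180 with 1 library left out. Between the groups under tlr4f/f, none was called with edgeR, beside 0 of all 14712 genes tested. In the interaction, Tnip2, which binds A20, was the 1 gene of this list called (-1.22, SE 0.187, adjusted p = 0.00640), beside 0.405% of all genes called lower.

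A list of 30 textbook targets of NF-kB, among them cytokine and chemokine genes, was described in the same way. It was written with earlier results of these data known. It holds Il1b, which also served to check the headings and is counted in the calls and medians below. Under LPS-, 24 were called higher in the tlr4f/f-lysM-cre columns, against 9.26% of all genes tested, and under LPS+ 29, against 10.8%. None was called lower in either. Il12b and Il23a, too low to be tested between the groups under tlr4f/f, passed the filter only through the columns in which they are high. Without them, 22 of 28 and 27 of 28 were called, with median log2 fold changes of 5.49 (-0.08 over all genes) and 4.70 (-0.02 over all genes). Others of these 28 also had few counts in a library under LPS- tlr4f/f. The lowest count there was 2 for Nos2 and Vcam1, 4 for Il1b, 1 for Cxcl3 and 0 for Il6 and Cxcl1. Under LPS+ tlr4f/f, Il6 was counted 6 to 13 times. In these comparisons such genes too passed the filter through the columns in which they are high, so the counts and medians are descriptions only. Under LPS-, the largest rise among these 28 was that of Nos2, the inducible nitric oxide synthase, counted 2 to 160 times under LPS- tlr4f/f and 62421 to 180826 times under LPS- tlr4f/f-lysM-cre. Between the groups under tlr4f/f-lysM-cre, all 30 lay lower in the LPS+ columns. The median was -1.62, or -1.42 without Il12b and Il23a, against 0.03 over all genes. Without TMM factors, 28 lay lower and Tnfaip2 and Cxcl3 higher (median -1.26). With edgeR, 10 were called, against 3.66% of all genes tested, led by Nos2 (-4.33, SE 0.469, adjusted p = 0.00249). With 1 library left out, this comparison had 4 to 1180 genes called in all, against 867 with every library kept. Between the groups under tlr4f/f, none of the 28 targets tested was called with edgeR, beside 0 of 14712 genes in all. In the interaction, none of the 30 was called with edgeR, beside 0.589% of all genes called higher and 0.405% called lower.

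Across the 12 libraries, the 45 pairs of the 10 genes correlated with r between 0.847 and 0.997 on the log2 CPM scale, a description in which all points share the differences between groups. The lowest pair was Rela with Rel and the highest Nfkb2 with Nfkbia. After each group's mean was taken off, r ran from -0.803 (Nfkbiz with Tnfaip3) to 0.882 (Relb with Nfkbia), with a median of 0.333. Within groups the genes thus did not all vary together. The genes most like each member over the 12 libraries were other members for Relb (Nfkb2, r = 0.996) and, in second place, for Nfkb2 and Nfkbia with each other (r = 0.997). The first place went to Cxcl10 for Nfkb2 (r = 0.997), Herc6 for Nfkbia (0.997), Mapkapk2 for Nfkb1 (0.997), Tap2 for Nfkbib (0.996), Trim26 for Rela (0.994), Fam102b for Rel (0.995), Tet2 for Nfkbie (0.994), Slfn5 for Nfkbiz (0.994) and Gm36043 for Tnfaip3 (0.991).

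The counts of Nfkb2 and Nfkbib carry a limit of the counting. In the GENCODE vM21 annotation, Nfkb2 shares 299 exon bases with Psd and 531 with AC114539.1, and Nfkbib shares 314 with Ccer2 and 42 with Sirt2, all on the opposite strand. The library kit does not mark the strand, so that reads from shared bases cannot be told apart. For the 8 genes with several transcript rows, the lowest row held between 87.6% and 98.7% of the counts of the row used.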

How the data were processed

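PolyA-RNA of BMDMs was sequenced in 12 libraries. According to the submitters' processing notes and the methods of the study, the authors trimmed reads (Trimmomatic 0.36), used HISAT2 for alignment to mm10 and HTSeq for counting. The authors deposited raw whole-number counts, 1 row for each of 115140 transcripts. Versions of HISAT2 and HTSeq are not given in the sources used here. Transcripts of a gene share reads, so the row with the highest total was taken per value of the gene column. The libraries held 33577440 to 56445989 counts. Reads carry no molecular identifiers, so counts are not independent molecules.

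Groups were taken from the column headings. Tests were run with edgeR 4.0.16 in R 4.3.3 (genes kept by filterByExpr, TMM, robust quasi-likelihood test, Benjamini-Hochberg adjustment over all genes tested), on the 6 libraries compared and, for the interaction, on all 12. A gene was called at an adjusted p below 0.01 with more than a 2-fold difference, the criteria of the study, which used DESeq. Levels are TMM CPM, and per kilobase after division by the length column. The correlations used log2 CPM with a prior count of 2. Biological coefficients of variation were estimated within each group.

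The members and lists were chosen with earlier results of these data known. Named are all members, Tlr4, Lyz2 and Il1b as checks, per list and pairwise comparison the called gene with the largest rise and fall, and the genes most like each member by r. Alternatives were DESeq2 1.42.0, an adjusted p below 0.05, limma 3.58.1 (voom, quality weights), the replicate number as a block, RLE factors, a filter of 1 count in all or of 10 counts in each library, a single fit of 12 libraries, summed transcripts and each library left out; scaling by library totals without TMM factors was added after seeing the data. The test was also run on simulated data, and its outcome there is not given here.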

Additional observations from a re-analysis of the deposited data

Results flagged for a closer look

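The interaction of genotype and LPS for Tnfaip3 was -2.89 on the log2 scale (SE 0.540, adjusted p = 0.0129 with edgeR's quasi-likelihood test), the only member with an interaction above 2-fold at an adjusted p below 0.05. What singled it out is this test of the LPS change between genotypes, which is the same in both readings of the headings; at 0.0129 it missed the criterion of 0.01 used for calls. Its level in the libraries under LPS- tlr4f/f, which enter this sum, ran from 13.8 to 52.7 CPM. The gene passed the criteria of the other calls without replicate 2 of that group, the highest, and also without replicate 3, the lowest. The log2 difference between the groups under tlr4f/f, which enters the sum, moved from 0.77 to 1.53 and to 0.44 in these cases. The stromal markers of the same 3 libraries were at 665, 60.9 and 9.42 CPM in replicates 1, 2 and 3, and Tnfaip3 was at 20.8, 52.7 and 13.8 CPM. The part of these markers in the interaction was not tested.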

How the results depend on the processing

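Of 850 log2 fold changes of single genes under an alternative, 801 kept their direction and their side of the criteria, 25 kept the direction and lost the call, 17 gained a call and 7 changed sign. The 9 genes called under LPS+ and the 10 called under LPS- (tlr4f/f-lysM-cre minus tlr4f/f) were 9 and 10 under each library left out. The genes called in all, in either direction, then numbered 3022 to 3156 under LPS+, against 3165 with every library kept. Under LPS- they numbered 1039 to 1683, against 2500. Between the groups under tlr4f/f, the count rose from 0 to 1 (Nfkbiz) with DESeq2, without a filter beyond 1 count, with all 12 libraries in a single fit and at an adjusted p below 0.05, and was 0 to 1 with 1 library left out. There the number of genes called in all rose from 0 to 467 with DESeq2. It rose to 34 without a filter beyond 1 count, to 75 in the single fit and to 92 at an adjusted p below 0.05. With 1 library left out, it was 0 to 182. Between the groups under tlr4f/f-lysM-cre, the count of 5 (867 genes in all) fell to 1 with the replicate block and to 2 with library totals without TMM factors. The number of all genes called under that block and that scaling is not given here, so these falls are not set against all genes. With 1 library left out, the count was 0 to 7 (4 to 1180 genes in all). The count of the interaction rose from 0 to 2 with DESeq2, and to 1 with limma voom, at least 10 counts in every library, an adjusted p below 0.05 and library totals without TMM factors, and was 0 to 1 with 1 library left out. All genes called moved from 157 to 657 with DESeq2, and were 10 to 306 with 1 library left out. Those with at least 10 counts in every library, at an adjusted p below 0.05 and with library totals are not given here. Changes of sign were small. Nfkbie between the groups under tlr4f/f stood at 0.046 with limma voom, Rel between the groups under tlr4f/f-lysM-cre at 0.063 and the interaction of Nfkb1 at 0.176 with library totals without TMM factors. With 1 library left out, the difference between the groups under tlr4f/f ran from -0.31 to 0.14 for Relb, from -0.34 to 0.13 for Nfkb2 and from -0.42 to 0.060 for Nfkbie, each positive without replicate 1 under LPS- tlr4f/f, and the interaction of Nfkb1 ran from -0.41 to 0.053. Replicate numbers were not read as pairs, since the labels do not tie them. The values do not speak for this choice. Of 18 pairs of same-numbered libraries, 5 deviated together with r above 0.1, and 9 of 12 libraries correlated best with their own number. Between the groups under LPS-, r was 0.472 for replicate 1, 0.340 for replicate 2 and 0.0138 for replicate 3. Whether same-numbered libraries share a batch was not tested. With the replicate block, the other counts of members called equalled those reported. Between the groups under tlr4f/f, 0 of 14712 genes in all were called under it. For the remaining comparisons the number of all genes called under it is not given here, so their counts are not set against all genes. The cause of these shifts was not tested. Each member had 287 counts or more in every library.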
